A study of Mus musculus with 6 samples.

Results

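The 10 genes described here are targets and components of the canonical Wnt/β-catenin pathway: Sp5, T, Axin2, Lef1, Tcf7, Tcf7l1, Cdx1, Nkd1, Rnf43 and Ctnnb1. They were chosen by name, and the choice rested on earlier results of these data in which Sp5 was higher in cells that overexpressed Rbbp4. All 10 were found among the 55401 genes of every library. The values of Sp5, and of the other members, in Rbbp4-overexpressing against control cells are therefore a description and carry no test.

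Gene expression was measured by bulk poly(A) RNA-seq in 6 libraries of the mouse embryonic stem cell (mESC) line 46C. Control cells stably expressed the biotin tag alone, Rbbp4 OE cells stably expressed biotin-Rbbp4, and Rbbp7 OE cells stably expressed biotin-Rbbp7, with 2 libraries in each group. By the study's methods all 3 lines also carried the biotin ligase BirA, and tag and transgene were delivered by lentivirus under drug selection, so each line is an infected population with an unmeasured number of insertions. Every line, controls included, was grown with serum, LIF, 3 µM Chir99021 and 1 µM PD0325901. Chir99021 inhibits the kinase GSK3 and so activates Wnt/β-catenin signalling, and PD0325901 inhibits MEK. No library without Chir99021 was compared here, so all levels are those of cells grown with an activator of the pathway. Expression is given in TPM, each gene's share of all transcripts after correction for length, scaled to the same total in every library.

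As background, Wnt ligands bind Frizzled receptors and LRP co-receptors at the cell surface. This stops the destruction complex of Axin, APC, GSK3 and casein kinase 1 from marking β-catenin for degradation. Stabilised β-catenin enters the nucleus, binds TCF/LEF proteins on DNA and activates target genes, several of which encode feedback inhibitors of the pathway. In mESCs, β-catenin relieves repression of pluripotency genes by Tcf7l1, and in the embryo the pathway drives formation of the primitive streak and mesoderm.

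The promoters of the 2 members that hold a TCF/LEF motif close to the transcription start are shown first, because the TCF/LEF proteins bind such letters. The motifs CTTTGAT and CTTTGAA were searched on both strands from 250 bases before to 50 bases after each RefSeq transcription start, and as they differ in the last letter no stretch of 1 strand matches both. Of 32851 such windows, 3.73% held CTTTGAT, 5.14% held CTTTGAA and 8.65% held either. Windows were read for 9 members, 15 windows in all, and 2 windows had a match, in Sp5 and in T. The lines below give the 250 bases before each start, 5′ to 3′ on the gene's strand, from the GRCm38.p6 table of RefSeq promoters, with the motif in capitals. The Sp5 stretch is chr2:70474673-70474922 on the + strand and holds CTTTGAT in the direction of the gene, 104 bases before the start. The T stretch is chr17:8434173-8434422 on the + strand and holds CTTTGAA on the opposite strand, 235 bases before the start.
Sp5: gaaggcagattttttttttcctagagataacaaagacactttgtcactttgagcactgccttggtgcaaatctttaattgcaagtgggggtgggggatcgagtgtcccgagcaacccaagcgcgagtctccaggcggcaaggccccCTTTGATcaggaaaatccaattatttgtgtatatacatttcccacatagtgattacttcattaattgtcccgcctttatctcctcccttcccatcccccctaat
T: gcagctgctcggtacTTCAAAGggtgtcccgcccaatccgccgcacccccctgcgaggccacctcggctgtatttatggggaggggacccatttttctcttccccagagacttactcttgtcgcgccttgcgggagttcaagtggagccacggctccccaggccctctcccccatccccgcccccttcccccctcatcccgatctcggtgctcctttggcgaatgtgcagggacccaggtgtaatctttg
A match in letters is a description of the sequence, and binding was not measured in the data used here. The search found neither motif in the windows of Axin2, Lef1, Tcf7, Tcf7l1, Nkd1, Rnf43 or Ctnnb1, and Cdx1 was not searched.

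The overexpressed genes and the cell type were checked before the members. Rbbp4 had 146 and 147 TPM in the controls, 270.0 and 271 TPM with Rbbp4 OE, and 144 and 143 TPM with Rbbp7 OE. Rbbp7 had 239 and 237 TPM in the controls, 208 and 217 TPM with Rbbp4 OE, and 725 and 748 TPM with Rbbp7 OE. Each overexpressed gene was thus highest in the line named for it. All 7 markers of embryonic stem cells were present, with a summed level of 7640 to 8658 TPM per library. Markers of primitive endoderm summed to 0.97 to 3.29 TPM and those of trophoblast to 10.7 to 15.9 TPM. The trophoblast sum joins genes that differed in opposite directions. Tfap2a had 6.58 and 5.35 TPM in the controls, 2.6 and 2.27 with Rbbp4 OE, and 4.55 and 3.16 with Rbbp7 OE. Gata3 was also lower in both lines, at 0.39 to 0.51 TPM against 1.29 and 0.83. Eomes was higher in both, at 7.59 to 11.2 TPM against 5.32 and 6.01. Hand1 reached 2.11 TPM in Rbbp4 OE replicate 2, and Elf5 and Krt7 stayed near 0. Of the neural markers, Neurog2 was listed at 0 in every library and Tubb3 had 89.5 to 114 TPM. The 6 fibroblast markers summed to 4.48 and 5.59 TPM in the controls, 9.09 and 11.3 TPM with Rbbp4 OE, and 15.5 and 8.75 TPM with Rbbp7 OE, with Postn and Lum at 0 throughout. Most of the difference in Rbbp4 OE was Thy1, which had 4.13 and 5.02 TPM in control and 8.87 and 10.8 TPM in Rbbp4 OE. In Rbbp7 OE, Col1a1 had 0.81 and 0.86 TPM (0.20 to 0.46 elsewhere), Col1a2 had 1.3 and 0.79 TPM (at most 0.11 elsewhere), and Col3a1 had 6.39 TPM in replicate 1 and at most 0.06 TPM in any other library. Replicates differed by a median absolute log2 difference of 0.178 in control, 0.121 in Rbbp4 OE and 0.123 in Rbbp7 OE, against 0.182 to 0.290 between groups. The part of these differences in the values of the members was not tested.

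The members covered a wide range of levels. Averaged over the 6 libraries, Ctnnb1 had 463 TPM, Tcf7l1 80.3 TPM, Cdx1 76.9 TPM, Tcf7 42.9 TPM, Sp5 26.8 TPM and Axin2 20.9 TPM. The remaining members were scarce, with 2.54 TPM for T, 0.998 TPM for Nkd1, 0.980 TPM for Lef1 and 0.425 TPM for Rnf43. Neighbours in this order whose library values overlapped were Tcf7l1 and Cdx1, Sp5 and Axin2, and the 4 scarce genes among themselves. In bulk RNA, fewer cells that express a gene and less RNA per cell cannot be told apart.

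**Figure D1:**
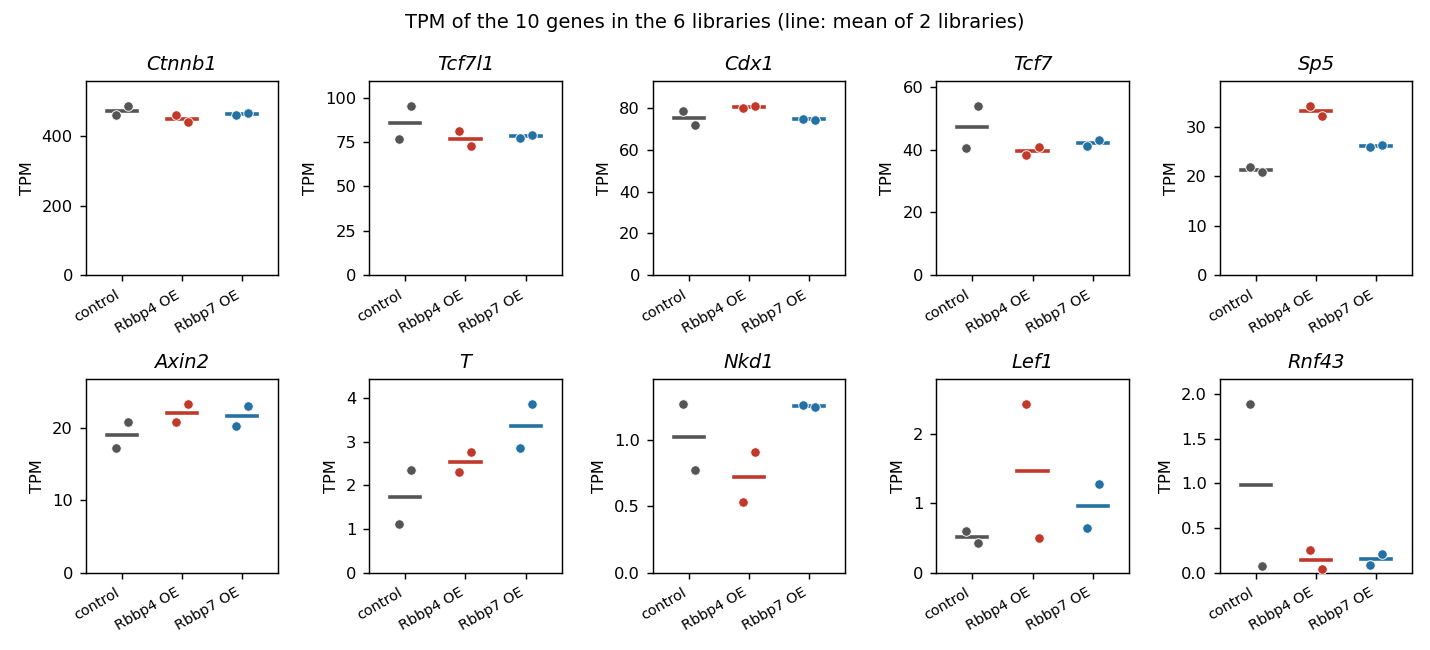
TPM (vertical axes, from 0) of the 10 genes in each of the 6 libraries, 1 panel per gene in order of mean level. Points are libraries, lines are the means of 2 libraries, and only for Sp5 were all 3 groups free of overlap, with Rbbp4 OE at 34.1 and 32.1, Rbbp7 OE at 25.9 and 26.3 and control at 21.8 and 20.8. Sp5 was chosen by its rise in Rbbp4 OE, so its separation there is a description.

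Sp5 was the member with the clearest separation between groups. It encodes a zinc finger protein of the Sp family, is a direct target of β-catenin, and is known to act on other Wnt targets. The gene (ENSMUSG00000075304.2) lies on GRCm38 chromosome 2, from 70474923 to 70477729 on the + strand. Sp5 had 21.8 and 20.8 TPM in the controls, 34.1 and 32.1 TPM with Rbbp4 OE, and 25.9 and 26.3 TPM with Rbbp7 OE. Both Rbbp4 OE libraries were above both Rbbp7 OE libraries, and these were above both controls. The means were 21.3 ± 0.68 TPM in control, 33.1 ± 1.4 TPM in Rbbp4 OE and 26.1 ± 0.26 TPM in Rbbp7 OE (SD, n = 2 each). Rbbp4 OE minus control came to 0.61 on the log2(TPM + 1) scale (SE 0.081), the contrast by which Sp5 was chosen, and 94.9% of the 14156 tested genes had a lower value there. As a ratio of mean TPM this was 1.55, against 1.22 for Rbbp7 OE over control.

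The level of Sp5 in Rbbp7 OE was not used to choose it, although the same control libraries enter that comparison and the choice. The log2 fold change of Sp5 between Rbbp7 OE and control was 0.28 (SE 0.081), with a 95% confidence interval of 0.08 to 0.48 before adjustment, and both libraries were higher than both controls. This did not pass the test over all genes (limma adjusted p = 0.204). Rbbp4 OE exceeded Rbbp7 OE by 0.33 (SE 0.081), which is given without a test because the same Rbbp4 OE libraries chose the gene. A correction for GC content and transcript length, chosen after seeing the data, lowered the difference in Rbbp4 OE to 0.42. Median-of-ratios scaling and quantile normalization both raised it to 0.72.

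Ratios within a library do not depend on the scaling between libraries. The ratio of Sp5 to Axin2 TPM was 1.27 and 1.00 in the controls, 1.64 and 1.38 with Rbbp4 OE, and 1.28 and 1.14 with Rbbp7 OE. Both Rbbp4 OE libraries were above the other 4. The ratio of Sp5 to Cdx1 was 0.277 and 0.291 in the controls, 0.425 and 0.397 with Rbbp4 OE, and 0.345 and 0.353 with Rbbp7 OE, in the order of the Sp5 levels themselves. Within the Sp family, Sp5 took 20.5% and 17.1% of the summed TPM of 8 Sp genes in the controls, 26.8% and 26.5% with Rbbp4 OE, and 20.6% and 21.6% with Rbbp7 OE. These ratios share the Sp5 values that chose the gene and are a description. Sp9 was the only gene with a stretch similar to the Sp5 transcript at 90% identity or more, over 243 bases or 11.6% of the transcript, and it had 1.00 to 2.11 TPM. Sp5 also stands on the study's list of early 2C (2-cell embryo) genes, a list compiled outside the libraries analysed here.

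The genes most like Sp5 over the 6 libraries were named by the Pearson correlation of log2(TPM + 1) among 8572 protein-coding genes with a mean of at least 5 TPM. They were Cmtr1 (r = 0.995), which encodes an mRNA cap methyltransferase, Mrpl54 (0.993), a mitochondrial ribosomal protein, Snrpn (0.991), a small nuclear ribonucleoprotein, Ptp4a3 (0.991), a phosphatase, and Rbmxl2 (0.991), an RNA-binding protein. With 6 libraries in 3 groups, these values say little beyond a likeness of the group means. Rbmxl2, for example, had 112 and 110 TPM in the controls, 204 and 196 TPM with Rbbp4 OE, and 135 and 139 TPM with Rbbp7 OE. None of the 5 is among the Wnt genes listed here. Against Sp5 the other members had r of 0.70 for Cdx1, 0.62 for Lef1, 0.53 for Axin2, 0.38 for T, -0.40 for Rnf43, -0.47 for Nkd1, -0.51 for Tcf7l1, -0.67 for Tcf7 and -0.71 for Ctnnb1. Axin2, another direct target, thus followed Sp5 less closely than Cdx1 did by this measure, over the 6 libraries and with no test.

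T (Brachyury) encodes the T-box factor that marks the primitive streak and is needed for mesoderm. It lies on chromosome 17, from 8434423 to 8442496 on the + strand (ENSMUSG00000062327.10). T had 1.11 and 2.34 TPM in the controls, 2.3 and 2.76 TPM with Rbbp4 OE, and 2.86 and 3.86 TPM with Rbbp7 OE. The Rbbp7 OE libraries were above both controls, whereas Rbbp4 OE overlapped the controls. Rbbp7 OE minus control came to 0.71 (SE 0.27), with a 95% interval of 0.05 to 1.36 before adjustment, and did not pass (limma adjusted p = 0.297). It was 0.37 without control replicate 1 and 1.04 without control replicate 2. In Rbbp4 OE the difference was 0.41 (SE 0.27), and it was 0.08 without control replicate 1 and 0.74 without control replicate 2. Rbbp4 OE minus Rbbp7 OE was -0.30 (SE 0.27, limma adjusted p = 0.576). The mean of T was thus highest in Rbbp7 OE, though T was not called between both lines. That of Sp5 was highest in Rbbp4 OE, the line by which Sp5 was chosen. Both genes hold a motif match, and a link between motif and level was not tested.

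The feedback inhibitors Axin2, Nkd1 and Rnf43 are classical target genes that dampen the pathway which induces them. Axin2, a scaffold of the destruction complex (chromosome 11, from 108920349 to 108950783, + strand), had 17.2 and 20.8 TPM in the controls, 20.8 and 23.3 TPM with Rbbp4 OE, and 20.3 and 23.0 TPM with Rbbp7 OE. The means were higher in both lines, but the lowest library of each line lay below control replicate 2, which had 20.82 TPM against 20.78 and 20.29. The log2 difference was 0.21 (SE 0.13) in Rbbp4 OE and 0.18 (SE 0.13) in Rbbp7 OE, the latter with a limma adjusted p of 0.553 and an interval of -0.13 to 0.50. Without control replicate 1 these were 0.08 and 0.05, and without control replicate 2 they were 0.34 and 0.31. Rbbp4 OE and Rbbp7 OE differed by 0.03 (SE 0.13, adjusted p = 0.937).

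Nkd1 binds Dishevelled and lies on chromosome 8, from 88521354 to 88594884 on the + strand. It had 1.27 and 0.77 TPM in the controls, 0.53 and 0.91 TPM with Rbbp4 OE, and 1.26 and 1.25 TPM with Rbbp7 OE. The Rbbp4 OE libraries were below both Rbbp7 OE libraries but overlapped the controls, and Rbbp7 OE lay within the range of the controls. The direct difference was -0.40 (SE 0.24, limma adjusted p = 0.408). Rnf43, a ubiquitin ligase that removes Frizzled receptors (chromosome 11, from 87662722 to 87735539, + strand), had 1.89 and 0.07 TPM in the controls, 0.25 and 0.04 TPM with Rbbp4 OE, and 0.09 and 0.21 TPM with Rbbp7 OE. Its single value above 0.25 TPM was control replicate 1. Its mean was under the 0.5 TPM needed for the test, so it was not tested, and its log2 differences of -0.63 and -0.61 rest on that one library.

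The TCF/LEF factors bind DNA for β-catenin. Tcf7l1 (chromosome 6, from 72626378 to 72789254, - strand), mainly a repressor in mESCs, had 76.5 and 95.2 TPM in the controls, 81.1 and 72.5 TPM with Rbbp4 OE, and 77.6 and 78.8 TPM with Rbbp7 OE. Tcf7 (chromosome 11, from 52252371 to 52283014, - strand), mainly an activator there, had 40.4 and 53.8 TPM in the controls, 38.3 and 40.9 TPM with Rbbp4 OE, and 41.0 and 43.1 TPM with Rbbp7 OE. In both genes control replicate 2 was the highest library and control replicate 1 lay within the range of the other 4. The difference in Rbbp4 OE was -0.15 (SE 0.11) for Tcf7l1, which became 0.0034 without control replicate 2 and -0.31 without control replicate 1, and -0.23 (SE 0.14) for Tcf7, which became -0.03 without control replicate 2 and -0.43 without control replicate 1. In Rbbp7 OE it was -0.13 for Tcf7l1 (limma adjusted p = 0.657) and -0.15 for Tcf7 (limma adjusted p = 0.661), and both changed sign without control replicate 2, to 0.03 and 0.05.

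Lef1 (chromosome 3, from 131110471 to 131224356, + strand), which is both a factor and a target of the pathway, had 0.6 and 0.43 TPM in the controls, 2.43 and 0.5 TPM with Rbbp4 OE, and 0.64 and 1.28 TPM with Rbbp7 OE. Both Rbbp7 OE libraries were above the controls, replicate 1 of them by little, and within Rbbp4 OE replicate 1 was high and replicate 2 stood between the controls. The difference of 0.58 (SE 0.42) in Rbbp4 OE became -0.01 without Rbbp4 OE replicate 1 and 1.18 without Rbbp4 OE replicate 2. In Rbbp7 OE it was 0.35 (SE 0.42, limma adjusted p = 0.749), which became 0.12 without Rbbp7 OE replicate 2 and 0.59 without Rbbp7 OE replicate 1. The Lef1 transcript holds stretches similar to 102 other genes at 90% identity or more, each covering at most 4.79% of it.

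The make-up of the TCF/LEF family was compared within each library, with Tcf7l2, the fourth gene, added. Tcf7l1 took 59.96% to 63.6% of the summed TPM of the 4 genes, Tcf7 30.1% to 34.6% and Lef1 0.277% to 1.91%. Between Rbbp4 OE and control each of these 3 shares overlapped. With Rbbp7 OE the shares of Tcf7l1 (61.2% and 59.96%) and Tcf7 (32.3% and 32.8%) were below both controls, which had 62.8% and 61.3% of Tcf7l1 and 33.2% and 34.6% of Tcf7, and that of Lef1 (0.505% and 0.974%) was above its 0.492% and 0.277% in the controls. The shares of the 4 genes make up the whole, so a higher share of 1 gene lowers the others. In TPM, Tcf7l1 and Tcf7 with Rbbp7 OE overlapped the controls. The ratio of Tcf7l1 to Tcf7 ranged from 1.77 to 2.12. Tcf7l2 took 3.53% and 3.84% in the controls, 4.42% and 4.36% with Rbbp4 OE, and 5.99% and 6.31% with Rbbp7 OE, so that the 3 groups did not overlap. In TPM, Tcf7l2 had 4.3 and 5.96 in the controls, 5.64 and 5.19 with Rbbp4 OE, and 7.59 and 8.29 with Rbbp7 OE, with a log2 fold change of 0.56 in Rbbp7 OE that did not pass (limma adjusted p = 0.216). Tcf7l2 was singled out after its values were seen.

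**Figure D2:**
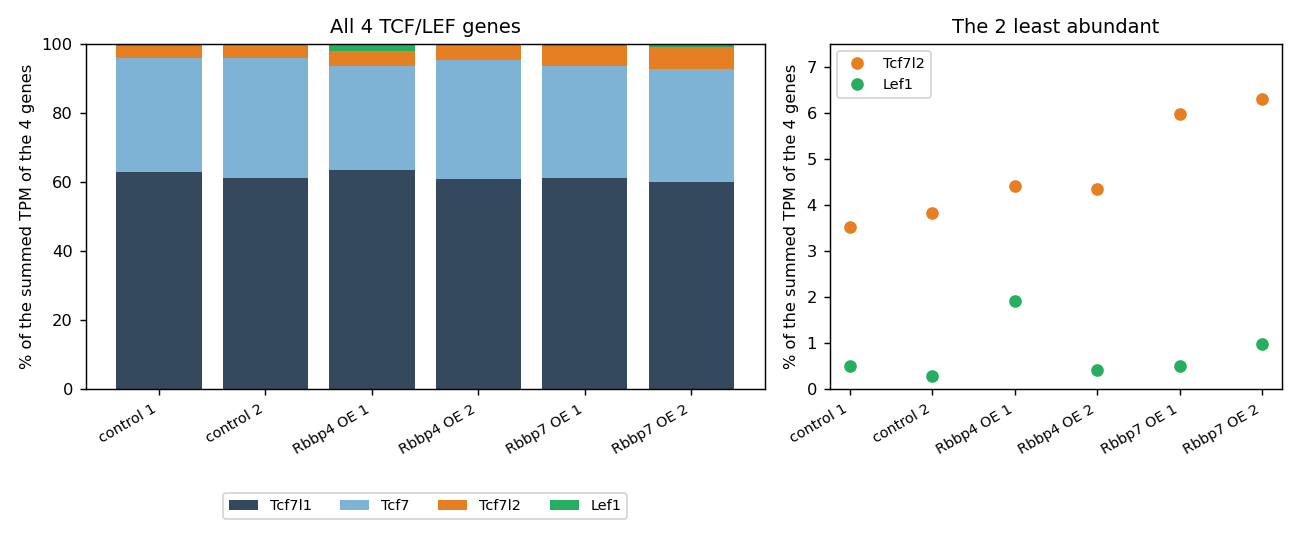
Share of each TCF/LEF gene in the summed TPM of the 4 genes (percent), by library, for all 4 genes (left, stacked bars) and enlarged for Tcf7l2 and Lef1 (right, 1 point per library). Tcf7l1 stays between 59.96% and 63.6%, while Tcf7l2 lies at 3.53% and 3.84% in the controls and at 5.99% and 6.31% in Rbbp7 OE.

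Cdx1, a homeobox factor that patterns the posterior axis (chromosome 18, from 61018862 to 61036199, - strand), had 78.8 and 71.8 TPM in the controls, 80.4 and 80.9 TPM with Rbbp4 OE, and 75.1 and 74.4 TPM with Rbbp7 OE. The Rbbp4 OE libraries were above the other 4 by a small margin, and Rbbp7 OE lay within the range of the controls. The difference in Rbbp4 OE was 0.10 (SE 0.068) and changed sign to -0.09 with the GC and length correction. It was 0.17 without control replicate 1 and 0.03 without control replicate 2. In Rbbp7 OE it was -0.0087 (SE 0.068, limma adjusted p = 0.976), with an interval of -0.17 to 0.16. Rbbp4 OE exceeded Rbbp7 OE by 0.11 (SE 0.068, limma adjusted p = 0.425).

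Ctnnb1, which encodes β-catenin itself (chromosome 9, from 120929216 to 120960507, + strand), had 461 and 486 TPM in the controls, 460 and 442 TPM with Rbbp4 OE, and 461 and 467 TPM with Rbbp7 OE. The Rbbp4 OE libraries were the lowest of the 6, the higher of them by little. The difference was -0.07 (SE 0.048) in Rbbp4 OE, which turned to 0.04 under median-of-ratios scaling and was -0.11 without control replicate 1 and -0.03 without control replicate 2, and -0.03 (SE 0.048) in Rbbp7 OE (limma adjusted p = 0.828). The interval in Rbbp7 OE was -0.15 to 0.09, the narrowest among the members. Ctnnb1 shares 476 bases with Ulk4 on the opposite strand, and Ulk4 had 1.02 to 4.65 TPM. Jup, which encodes the close relative plakoglobin, had 108 and 110 TPM in the controls, 133 and 121 TPM with Rbbp4 OE, and 113 and 120 TPM with Rbbp7 OE. The ratio of Ctnnb1 to Jup was 4.27 and 4.43 in the controls, 3.46 and 3.64 with Rbbp4 OE, and 4.09 and 3.89 with Rbbp7 OE, and was lowest in both Rbbp4 OE libraries.

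**Figure D3:**
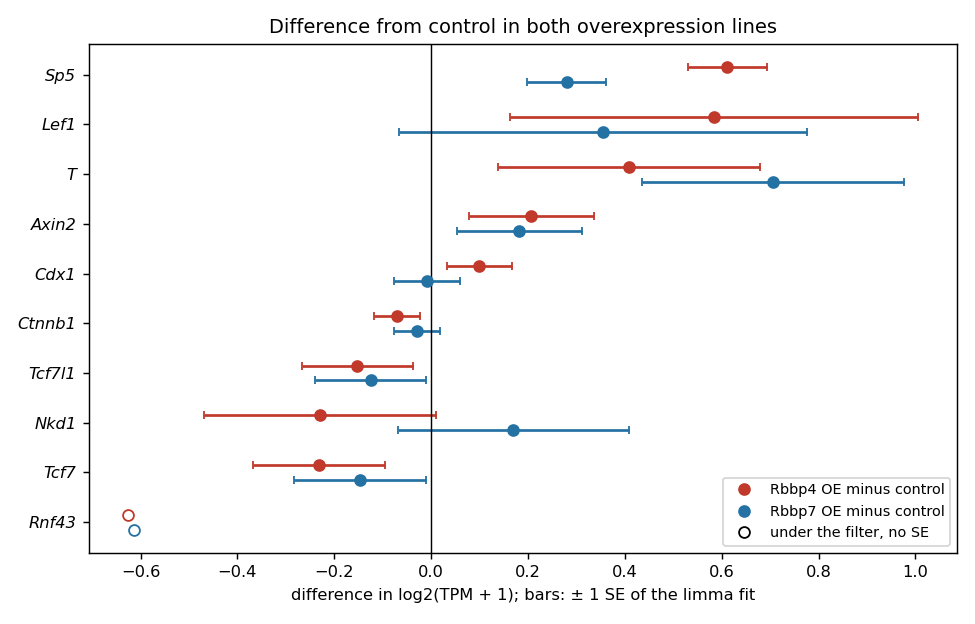
Difference from control in log2(TPM + 1) (horizontal axis) for the 10 genes in Rbbp4 OE (red) and Rbbp7 OE (blue). Bars are ± 1 SE of the limma fit, open points mark Rnf43, which was not fitted, and Sp5 lies at 0.61 in Rbbp4 OE and 0.28 in Rbbp7 OE while Ctnnb1 and Cdx1 lie within 0.10 of 0.

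Counted together, the members did not lie on one side of the controls. In Rbbp4 OE against control, 5 of 10 were higher and 5 lower, with a median log2 difference of 0.01. Of all tested genes 40.7% were higher, with a median of -0.08. Among the 9 members past the filter, which leaves out Rnf43, 5 were higher and 4 lower, with a median of 0.10. Groups did not overlap for 3 of the 10, Sp5 and Cdx1 above and Ctnnb1 below the controls, while 57.9% of all tested genes did not overlap (20.8% above, 37.1% below). Sp5 was chosen by its rise in this contrast, so its place on the higher side in these counts was fixed in advance. In Rbbp7 OE against control, again 5 were higher and 5 lower, with a median of 0.08 (all genes, -0.0037, with 48.8% higher). The 9 past the filter gave 5 higher and 4 lower, with a median of 0.17. Here Sp5, T and Lef1 stood above the controls and the others overlapped, against a background of 44.5% that did not overlap (21.2% above, 23.4% below). The comparison of both lines gave 4 higher and 6 lower, with a median of -0.02 (all genes, -0.08, with 36.5% higher). Past the filter it gave 4 higher and 5 lower, with a median of -0.03. Sp5, which the same Rbbp4 OE libraries chose, stood above the Rbbp7 OE libraries, as a description only. Cdx1 also stood above and T, Tcf7, Nkd1 and Ctnnb1 below them, with a background of 54.7% (16.1% above, 38.6% below). For Tcf7 and Ctnnb1 the sign of this small difference turned under median-of-ratios scaling.

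Genes were called by 2 rules, a strict one (a fold change over 2 with adjusted p under 0.01) and a lenient one (adjusted p under 0.05, any fold change). Of the 9 members past the filter, none was called in Rbbp7 OE against control by either rule, where limma called 0.0353% and 0.487% of all tested genes. Sp5 and T, or 2 of 9, had an unadjusted p under 0.05, as had 15.4% of all genes. Of the 8 members tested between both lines, none was called, against 0.0494% and 0.304% of all genes, and 0 had an unadjusted p under 0.05 (19% of all genes). A robust limma trend also called none in either comparison.

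The rest of the pathway was described with 9 lists of 139 genes, none of them members, of which 89 passed the filter. In Rbbp4 OE against control, 12 of the 89 changed by the lenient rule of limma, 3 higher and 9 lower, and 0 by the strict rule, while 37 (41.6%) had an unadjusted p under 0.05, as had 29.6% of all tested genes. The 12 are 13.5%, close to the 11.4% of all tested genes called (3.29% higher, 8.07% lower), and the strict rule called 0.516% of all genes. The median log2 fold change was -0.12 over the 89 and -0.08 over all tested genes. Under median-of-ratios scaling 19 of the 89 were called, 12 higher and 7 lower, beside 10.1% of all tested genes. Under quantile normalization 17 were called, 10 higher and 7 lower, beside 10.6%. The split by direction, and the nearness of the called share to that of all genes, thus depended on the scaling. All 12 named below kept their direction under every alternative run. A fit of only the Rbbp4 OE and control libraries called 1 of the 89, beside 1.12% of all tested genes. The count also fell on leaving out most single libraries, as did the share of all tested genes called. The SE of the 12 ranged from 0.0509 (Nanog) to 0.20 (Tle2).

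Among ligands and their secretion, 19 of 25 genes stayed under 1 TPM in every library and 6 were tested. Of these 6, 16.7% were called in Rbbp4 OE, beside 11.4% of all tested genes. Porcn, the acyltransferase that attaches the lipid needed for Wnt secretion, was the most abundant (mean 18.0 TPM) and the only one called. It had 13.1 and 9.91 TPM in the controls, 22.7 and 23.0 TPM with Rbbp4 OE, and 18.9 and 20.1 TPM with Rbbp7 OE. It rose by 0.94 in Rbbp4 OE (limma adjusted p = 0.0161), and was 0.72 higher in Rbbp7 OE without passing (adjusted p = 0.108). Of 12 tested receptors, 1 rose and 1 fell in Rbbp4 OE, or 16.7% beside the same 11.4%. Ror2, a receptor of the non-canonical branch, had 21.1 and 22.8 TPM in the controls, 14.9 and 15.1 TPM with Rbbp4 OE, and 20.2 and 19.9 TPM with Rbbp7 OE, and fell by 0.52 in Rbbp4 OE (adjusted p = 0.0226). Lrp5, a Wnt co-receptor, rose by 0.44 (adjusted p = 0.0259). Ryk, the most abundant receptor with a mean of 34.9 TPM, had a difference of 0.02 (adjusted p = 0.912).

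Of 20 tested cytoplasmic components, 4 were called in Rbbp4 OE, or 20% beside the 11.4% of all genes. All 4 were lower, beside 8.07% of all genes called lower. Fbxw11, a substrate adaptor of the ubiquitin ligase that binds phosphorylated β-catenin, had 25.1 and 35.3 TPM in the controls, 13.3 and 13.5 TPM with Rbbp4 OE, and 20.2 and 20.6 TPM with Rbbp7 OE. It fell by 1.10 (limma adjusted p = 0.0156). Csnk1a1, the casein kinase that primes β-catenin, had 137 and 159 TPM in the controls, 96.8 and 97.4 TPM with Rbbp4 OE, and 138 and 139 TPM with Rbbp7 OE, and fell by 0.60 (adjusted p = 0.0126). Tnks2, a tankyrase that destabilises Axin, fell by 0.74 (adjusted p = 0.0303), and Csnk1g3, a casein kinase of the gamma class, fell by 0.69 (adjusted p = 0.0445). These 4 include negative regulators of β-catenin (Fbxw11 and Csnk1a1) and a positive one (Tnks2). Csnk1e was the most abundant of this list (mean 145 TPM), with a difference of -0.18 (adjusted p = 0.311).

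Of 13 tested nuclear partners, 1 fell in Rbbp4 OE, or 7.69% beside 11.4% of all tested genes called (8.07% lower). It was the co-repressor Tle2 (log2 fold change -0.97, limma adjusted p = 0.0337). Tle2 had 1.8 and 1.99 TPM in the controls, 0.47 and 0.48 TPM with Rbbp4 OE, and 2.64 and 2.02 TPM with Rbbp7 OE. Jup was the most abundant, with a difference of 0.22 (adjusted p = 0.0894). Of 12 tested secreted and membrane inhibitors none was called, and Notum, a lipase that inactivates Wnt ligands and is itself a target, was the most abundant with 97.5 and 92.2 TPM in the controls, 67.4 and 85.7 TPM with Rbbp4 OE, and 79.7 and 87.6 TPM with Rbbp7 OE. Its difference in Rbbp4 OE was -0.32 (adjusted p = 0.146). Of 8 further target genes, 1 was called in Rbbp4 OE, or 12.5%. Ccnd1, the cell cycle gene cyclin D1, had 47.9 and 52.8 TPM in the controls, 36.2 and 35.8 TPM with Rbbp4 OE, and 48.1 and 44.1 TPM with Rbbp7 OE. It fell by 0.47 (adjusted p = 0.0246), while Sp5 was 0.61 higher in the same libraries.

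Of 16 mesoderm and primitive streak genes, 10 were under 1 TPM in every library and 5 were tested. None of the 5 was called, beside 11.4% of all tested genes in Rbbp4 OE. Nodal was the most abundant, with 51.7 and 55.7 TPM in the controls, 64.4 and 63.4 TPM with Rbbp4 OE, and 59.9 and 64.0 TPM with Rbbp7 OE, and a difference of 0.25 in Rbbp4 OE (limma adjusted p = 0.078). Eomes, singled out after its values were seen, had 5.32 and 6.01 TPM in the controls, 7.59 and 8.12 TPM with Rbbp4 OE, and 10.6 and 11.2 TPM with Rbbp7 OE. The 3 groups of Eomes did not overlap, in the order seen for the means of T, but its difference of 0.84 in Rbbp7 OE did not pass (adjusted p = 0.0689).

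The 7 pluripotency genes repressed by Tcf7l1 were all tested, and 1 rose and 2 fell in Rbbp4 OE. That is 42.9% of 7 genes, beside 11.4% of all tested genes called (3.29% higher, 8.07% lower). The list is small, and the difference in share was not tested. Klf2, a naive pluripotency factor, had 284 and 281 TPM in the controls, 402 and 386 TPM with Rbbp4 OE, and 314 and 335 TPM with Rbbp7 OE, and rose by 0.48 (limma adjusted p = 0.00884). Tfcp2l1, another naive factor, had 103 and 127 TPM in the controls, 82.0 and 76.8 TPM with Rbbp4 OE, and 99.04 and 99.91 TPM with Rbbp7 OE, and fell by 0.52 (adjusted p = 0.033). Nanog, the most abundant of the list (mean 471 TPM), fell by 0.23 (adjusted p = 0.0393). Of 6 tested Sp genes other than Sp5 none was called, and Sp2, the most abundant (mean 36.9 TPM), had a difference of 0.23 (adjusted p = 0.132). Lrp5 and Nanog fall outside the 10 largest differences set as the limit for naming and were named after their values were seen.

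In Rbbp7 OE against control none of the 89 genes was called by limma under either rule, beside 0.0353% (strict) and 0.487% (lenient) of all tested genes. There, 14 (15.7%) had an unadjusted p under 0.05, against 15.4% of all genes. Between both lines none was called either, beside 0.0494% (strict) and 0.304% (lenient) of all tested genes. Of the 89, 27 (30.3%) had an unadjusted p under 0.05, against 19% of all genes. The robust trend gave the same counts of 0. That 12 genes passed in Rbbp4 OE and none in Rbbp7 OE does not show that the lines differed, since the direct comparison called none. Its value was nearest to the threshold among the 12 for Csnk1a1, at -0.51 with an adjusted p of 0.0884.

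**Figure D4:**
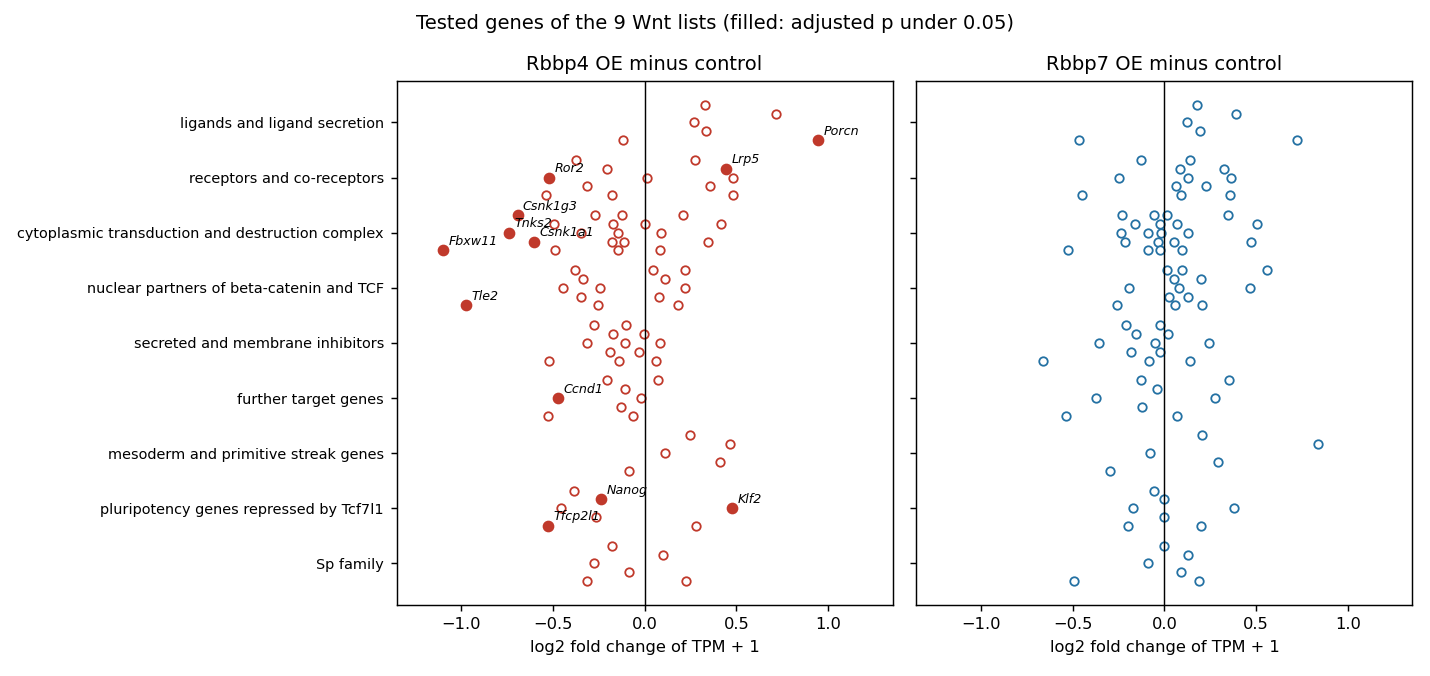
Log2 fold change of TPM + 1 against control (horizontal axes) for the 89 tested genes of the 9 Wnt lists (rows) in Rbbp4 OE (left) and Rbbp7 OE (right). Each point is a gene, filled points passed an adjusted p under 0.05, and all 12 of them, 3 higher and 9 lower, lie in Rbbp4 OE.

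Transcript base composition moved with the differences in Rbbp4 OE. With all tested genes divided into 4 groups of equal size by GC content, from the lowest to the highest, the median log2 difference in Rbbp4 OE was -0.18, -0.13, -0.04 and 0.05, and in Rbbp7 OE it was -0.04, -0.03, 0.001 and 0.06. Sp5 and Cdx1, at 62.0% and 62.1% GC, and Tcf7l1, at 59.3%, fall in the highest group, whereas Lef1, at 46.1%, falls in the second. After the correction for GC content and length, Sp5 was 0.42 in Rbbp4 OE and 0.19 in Rbbp7 OE, T 0.36 and 0.71, and Axin2 0.22 and 0.15. The 89 wider genes fell into these groups as 13, 19, 17 and 40, from the lowest GC content to the highest. The 9 that fell were 3, 3, 1 and 2 of them, and the 3 that rose were 0, 0, 1 and 2. With the correction 15 of the 89 were called, 10 of them among the 12, beside 10.2% of all tested genes called. Csnk1g3 (adjusted p = 0.0791) and Nanog (adjusted p = 0.0859) no longer passed. Beyond these values, the part of base composition was not tested.

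**Figure D5:**
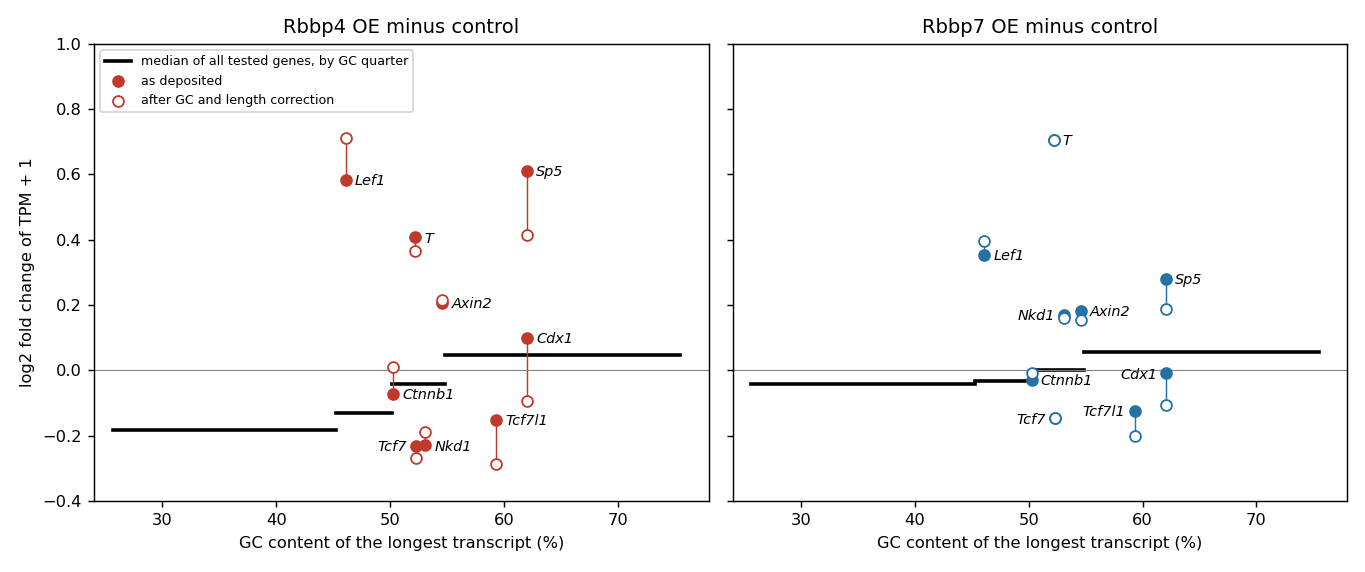
Log2 fold change of TPM + 1 against control (vertical axes) and GC content of the longest transcript (horizontal axes, percent) for the 9 fitted members in Rbbp4 OE (left) and Rbbp7 OE (right). Black lines are the medians of all tested genes in 4 groups of GC content, filled points are values as deposited and open points those after the GC and length correction, which moves Sp5 in Rbbp4 OE from 0.61 to 0.42.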

How the data were processed

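The authors trimmed poly(A) RNA-seq reads with Trim_galore, aligned them to mm10 with STAR and GENCODE annotation, and estimated expression with RSEM, per the study's methods. Whether strand was used in counting is not given in the sources used here. They deposited TPM values, 1 table for each of 6 libraries, which keep no sequencing depth, so depth is unknown and no counting interval is given. Names, coordinates, length and GC content came from GENCODE M21 on GRCm38, and 55141 of 55401 genes matched.

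The study tested counts. TPM is not a count, so limma-trend (limma 3.58.1, R 4.3.3) was run on log2(TPM + 1) for genes with a mean of at least 0.5 TPM, 14156 in all, with the 3 groups in 1 fit (3 residual degrees of freedom) and Benjamini-Hochberg adjustment over all of them. Fold changes on this scale understate the change of low genes. Groups came from the sample labels. The labels do not say whether replicates were separate cultures, so p-values measure the spread between these libraries only. The fit was tested on simulated data, with planted changes larger than any log2 difference given here and none in scarce genes. It does not show how well smaller changes, or changes in scarce genes, are found.

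The members, lists and tests were chosen with earlier results of these data known. Besides the members and the overexpressed genes, the genes named were called genes of the 9 lists (at most the 10 largest per comparison), the most abundant gene of each list and the 5 most like Sp5. Marker lists for 5 cell types were summed. Near-identical stretches were searched with blastn at 90% identity. The alternatives were other pseudocounts (0.1 and 5), no filter or a mean of at least 5 TPM, 2 other scalings, a fit with replicate as a block, fits of 2 groups, a robust trend, and leaving out each library. A GC and length correction was added after seeing the data.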

Additional observations from a re-analysis of the deposited data

How the results depend on the processing

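No tested member was called in Rbbp7 OE against control or between both lines under any alternative run. Sp5 had no test between both lines. The count of the 89 wider genes called in Rbbp4 OE at an adjusted p under 0.05, 12, became 6 with no filter, 19 with median-of-ratios scaling, 1 with a 2-group fit, and 0 to 14 on leaving out 1 library, where a group of 1 library was assumed to vary like the others. Fewer samples enter the 2-group and left-out fits, and elsewhere the cause was not tested. A replicate block gave 5, beside 6.36% of all tested genes. Same-numbered libraries did not deviate together (r = -0.03, 0.03 and -0.03), so the numbers were not taken as pairs, and the block called no tested member. With a mean of at least 5 TPM, 57 wider genes were tested, and 15 passed the lenient rule in Rbbp4 OE, beside 22.6% of all tested genes. Of the 57, 1 passed the stricter rule in Rbbp4 OE and 1 passed the lenient rule in Rbbp7 OE. The median of the members in Rbbp4 OE, 0.01, was 0.12 with median-of-ratios scaling, 0.073 with quantile normalization and -0.041 to 0.077 on leaving out 1 library. The median of all tested genes, -0.077, moved as well, to 0.011 with median-of-ratios scaling and -0.016 with quantile normalization.

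Among members, no reversed value passed the test. In Rbbp7 OE, Cdx1 became 0.025 with quantile normalization, and on leaving out 1 library the ranges were -0.35 to 0.053 for Tcf7, -0.28 to 0.031 for Tcf7l1, -0.076 to 0.058 for Cdx1, -0.0096 to 0.35 for Nkd1 and -0.067 to 0.0092 for Ctnnb1. Between both lines, median-of-ratios scaling gave 0.013 for Tcf7, 0.071 for Tcf7l1 and 0.057 for Ctnnb1, quantile normalization gave 0.0076 for Tcf7 and 0.025 for Tcf7l1, and the GC and length correction gave 0.019 for Ctnnb1. Leaving out 1 library gave ranges of -0.062 to 0.11 for Axin2, -0.37 to 0.83 for Lef1 and -0.11 to 0.052 for Tcf7l1. The cause was not tested.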
